A study of Mus musculus with 18 samples.

Results

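Predicted small interfering RNAs (siRNAs) of mouse sperm were followed across 3 generations. The 67 described here reached at least 1 tag per 1000000 reads (TPM) in at least 3 of 16 sperm libraries, with an unlisted siRNA counted as 0. They were 0.788% of the 8504 predicted siRNAs listed in those libraries. TPM in these data is the read count divided by the library's total reads, times 1000000, with no length term, so 1 TPM stood for 18.1 to 29.4 reads. They were selected on these levels in the 16 libraries themselves, so which siRNAs are abundant is a description and not a finding.

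Endogenous siRNAs are cut by Dicer from long double-stranded RNA, such as hairpins, overlapping sense and antisense transcripts or pairs of a gene and its pseudogene, and are loaded onto Argonaute proteins, chiefly AGO2, where they guide silencing of RNAs of matching sequence. In mice they are best known from oocytes, which carry a short Dicer form that makes them efficiently, and they have also been described in male germ cells. Their source transcripts often include transposons and pseudogenes. The siRNAs studied here were predicted by the submitters and carry only a number, for example novel_sir13521. Their sequences and positions were not analysed here, so neither their targets nor the word siRNA itself could be checked.

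The study asked whether exposure of male mice to ammonia (NH3) and hydrogen sulphide (H2S), irritant gases, leaves traces in sperm small RNA of later generations. The mice were of ICR, an outbred strain. Male F0 mice of the exposed line were treated with both gases for 5 weeks from 3 weeks of age and mated with normal females. The F1 sons were not exposed and were bred when 8 weeks old, and F2 males were not exposed either. The labels give 6 groups of 3 sperm libraries: F0 Con, F0 NHS, F1 Con, F1 NHS, F2 Con and F2 NHS, where Con is control and NHS is the exposed line. Nothing in the labels says that the libraries of a group came from separate animals, so every p-value covers only the scatter among these libraries, part of which may be technical. The lists of F1 NHS replicates 1 and 3 stop before the siRNAs, which leaves 1 F1 NHS library, replicate 2. That library was assumed to vary like the others. The lists of F1 NHS 2, F2 NHS 2 and F2 NHS 3 also stop early, but only after the small RNA classes used here. They hold 42.3%, 35.7% and 40.3% of the library's reads, and all of these libraries are of the exposed line.

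The 16 libraries held 18072900 to 29430555 reads. The 8 germ cell miRNAs used as markers of sperm, such as miR-34c-5p and miR-741-3p, were listed in all 16 libraries and summed to 4140 to 22175 TPM. The markers of epididymal epithelium (6), red blood cells (4), smooth muscle and stroma (5) and leukocytes (5) were also all listed in all 16 libraries, with smooth muscle markers summing to 8829 to 170157 TPM. In bulk samples like these, fewer cells of a type and less RNA per cell cannot be told apart.

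The libraries also fell into sets that cut across the groups. The predicted miRNA novel_mir1, which lies on chromosome 13 from 23438704 to 23438767 on the minus strand of mm10, is shown because its level separates these sets. Its mature sequence of 23 bases is that of the start of an alanine tRNA.

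novel_mir1: gggauguagcucagugguagagc

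It stood at 2378 to 18720 TPM in 6 libraries: F0 Con 2, F0 NHS 3, F1 NHS 2, F2 Con 1, F2 Con 2 and F2 NHS 1. In the other 10 libraries it stood at 42.9 to 223 TPM. These 6 libraries are called tRNA-high below and the other 10 tRNA-low. The sole F1 NHS library was tRNA-high and all 3 F1 Con libraries were tRNA-low, so in F1 the exposure and this split cannot be told apart.

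Predicted siRNAs were a small and thinly sampled class. Of the 8504, 5103 (60.0%) were listed in 1 library only, and 3549 were seen as 1 read in all. By contrast, 26 of the 67 abundant siRNAs were listed in all 16 libraries, and each was listed in at least 6. The 67 held 46.5% to 84.9% of a library's predicted siRNA reads. Mean levels over the 16 libraries ran from 0.31 TPM to 57.0 TPM with a median of 0.98 TPM. Only 5 siRNAs averaged 10 TPM or more, and 34 averaged under 1 TPM. At the edge of the selection, novel_sir1927 and novel_sir1169 had 1 TPM in the library ranked 3, and novel_sir9032 and novel_sir6736, just outside, 0.99 TPM. In all, 18 siRNAs had exactly 3 libraries at 1 TPM or more, while 23 that were left out had 2. No siRNA passed through 1 group alone.

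The most abundant was novel_sir13521, one of 3 siRNAs that reached 1 TPM in all 16 libraries, with novel_sir15806 and novel_sir2794. It stood at 83.8, 119 and 42.1 TPM in F0 Con, at 19.9, 101 and 169 in F0 NHS, at 13.6, 15.4 and 13.8 in F1 Con, at 36.45 in F1 NHS 2, at 48.9, 114 and 18.2 in F2 Con and at 31.6, 72.3 and 13.15 in F2 NHS. Its level was even in F1 Con and spread widely in every other group with 3 libraries, with Con and NHS overlapping in F0 and F2. It alone took 45.5% of the predicted siRNA reads of F0 NHS 3.

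The next, novel_sir15806, was low in F0 and high in parts of the later control groups. It stood at 2.59, 4.06 and 3.95 TPM in F0 Con, at 4.90, 4.25 and 2.13 in F0 NHS, at 41.9, 53.3 and 5.10 in F1 Con, at 8.63 in F1 NHS 2, at 212, 362 and 24.4 in F2 Con and at 10.25, 20.9 and 1.11 in F2 NHS. All 3 F2 Con libraries lay above all 3 F2 NHS libraries, and the libraries F2 Con 1 and 2, both tRNA-high, stood far above the rest. It took 35.3% and 41.5% of the predicted siRNA reads in those libraries.

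Next in level, novel_sir6376 and novel_sir9962 averaged 17.7 and 15.4 TPM. For novel_sir6376 the levels were 5.10, 5.15 and 5.71 TPM in F0 Con, 32.4, 21.2 and 0.95 in F0 NHS, 9.50, 55.5 and 3.22 in F1 Con, 6.45 in F1 NHS 2, 48.4, 44.15 and 20.9 in F2 Con and 9.17, 14.5 and 0.73 in F2 NHS. The F2 Con libraries again all lay above the F2 NHS libraries, and F0 Con was narrow while F0 NHS ran on both sides of it.

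novel_sir2660 was high in F0 and F1 Con and low in the remaining libraries. It stood at 38.5, 5.95 and 11.95 TPM in F0 Con, at 6.12, 18.6 and 26.1 in F0 NHS, at 18.8, 22.9 and 31.0 in F1 Con, at 1.17 in F1 NHS 2, at 1.13, 2.38 and 1.03 in F2 Con and at 3.74, 1.57 and 0.35 in F2 NHS. All 9 libraries of F0 and F1 Con lay above all 7 libraries of F1 NHS and F2. This split, noticed after the values were seen, was met by 1 of 2191 small RNAs tested in the 16 libraries (0.0456%), and by none in the opposite direction (0%). It gets no test here.

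novel_sir9590 was highest in F2 NHS. Its levels were 0.71, 8.45 and 0.21 TPM in F0 Con, 1.91, 2.17 and 5.10 in F0 NHS, 3.48, 6.67 and 8.32 in F1 Con, 10.4 in F1 NHS 2, 5.27, 6.20 and 11.9 in F2 Con and 8.60, 28.3 and 36.95 in F2 NHS. The F2 groups overlapped, since F2 NHS 1 lay below F2 Con 3. The remaining siRNAs among the 10 most abundant were novel_sir6911, novel_sir2794, novel_sir6913 and novel_sir5827, with means of 7.73, 7.40, 6.34 and 4.91 TPM.

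Among the siRNAs listed in all 16 libraries, the steadiest were novel_sir2794, novel_sir6913 and novel_sir10824, with a ratio of SD to mean of 0.59, 0.63 and 0.67. novel_sir2794 stayed between 1.47 and 16.2 TPM. The most variable were novel_sir10851, novel_sir15806 and novel_sir2529, with ratios of 2.51, 2.07 and 1.65. Each rested on 1 or 2 libraries: F0 Con 2 for novel_sir10851, F2 Con 1 and 2 for novel_sir15806, and F0 NHS 3 and F1 NHS 2 for novel_sir2529, at 19.6 and 22.95 TPM against at most 4.16 TPM elsewhere. The libraries in which most of the 67 had their highest level were F2 Con 2 (9 siRNAs), F0 NHS 2 (8) and F2 Con 1 (7).

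**Figure D1:**
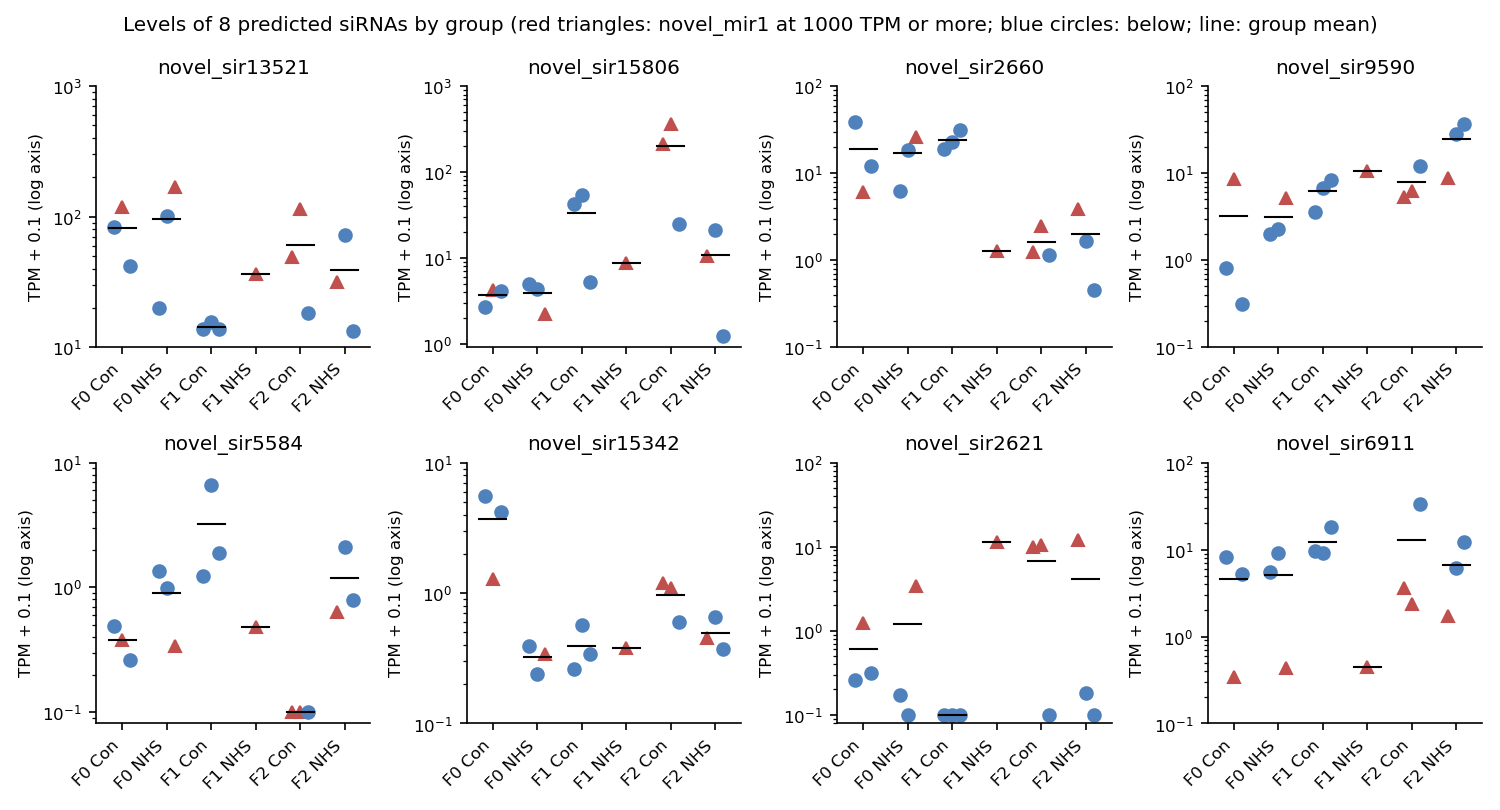
Levels of 8 predicted siRNAs by group, on a log axis of TPM + 0.1. Each point is a library, red triangles are the 6 libraries with novel_mir1 at 1000 TPM or more, blue circles the other 10, and lines are group means. novel_sir15806 peaks in F2 Con at 212 and 362 TPM, novel_sir2660 is at 0.35 to 3.74 TPM in F1 NHS and F2, and novel_sir5584 is at 0 in all 3 F2 Con libraries.

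The first comparison asked whether the siRNA class as a whole took another share of the reads in the exposed line. In F0 it took 324, 321 and 244 reads per 1000000 in Con (297 ± 45.7, SD, n = 3) and 326, 484 and 371 in NHS (394 ± 81.1, n = 3). All 3 F0 NHS libraries lay above the F0 Con libraries, by 97.3 on average, which is the most extreme order 3 against 3 libraries allow (exact permutation test, two-sided, p = 0.1, the smallest possible, adjusted p = 0.4 over 8 tests of share and number listed). Without F0 NHS 2 the F0 difference was 52.3. The summed germ cell markers stood at 4140 to 8155 TPM in F0 Con and 6823 to 18506 in F0 NHS, and those of red blood cells at 10152 to 77354 and 19991 to 35853. Epididymal markers ranged from 20287 to 28752 and 11990 to 25663 TPM, smooth muscle and stroma markers from 70257 to 170157 and 53701 to 124182, and leukocyte markers from 250 to 1861 and 402 to 777, in the same order. All 5 overlapped between the F0 groups, and their part in the share was not tested. In F1 the share was 276, 388 and 366 in Con (343 ± 59.0, n = 3) and 316 in the sole NHS library, inside the Con range (exact permutation p = 1, adjusted p = 1, with 0.25 the smallest possible).

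In F2 the direction was the opposite. The share was 602, 871 and 354 reads per 1000000 in Con (609 ± 259, n = 3) and 295, 360 and 249 in NHS (302 ± 55.9, n = 3). F2 NHS 2 lay just above F2 Con 3, so the groups overlapped (difference of -307, exact permutation p = 0.2, adjusted p = 0.4). The difference was -118 without the reads of novel_sir15806, -176 without F2 Con 2 and -48.9 among the tRNA-low libraries, 1 F2 Con and 2 F2 NHS. Pooled over generations, with labels permuted within each, the difference was -79.0 (exact permutation p = 0.3125, adjusted p = 0.5). It was -7.92 without the reads of novel_sir15806, -35.3 without F2 Con 2 and -121.5 without F2 Con 3. Among the tRNA-low libraries it was 36.0, averaged over F0 and F2 alone, since the sole F1 NHS library was tRNA-high. The counting error of a share was small beside this spread, though not beside the gap between F0 NHS 1 and F0 Con 1. Its exact 95% Clopper-Pearson interval reached 1.56% to 2.91% of the value to each side, which covers counting error only. The shares also depended on the denominator. Per 1000000 reads of miRNAs, predicted siRNAs and predicted piRNAs alone, F1 NHS 2 stood at 780, below F1 Con at 1075 to 2000. F2 NHS stood at 623 to 1026, below F2 Con at 1124 to 3576. F0 NHS stood at 686 to 1270, above F0 Con at 414 to 654. The pooled difference was then -604.5.

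Summed markers of some lists also differed between the F2 groups. The summed germ cell markers stood at 19191 to 22175 TPM in F2 Con and 8785 to 12833 in F2 NHS, and those of epididymal epithelium at 6048 to 9153 in F2 Con and 14942 to 20837 in F2 NHS, neither overlapping. The markers of red blood cells (4330 to 11541 against 9005 to 24327), smooth muscle and stroma (12564 to 35351 against 23065 to 36492) and leukocytes (195 to 2323 against 945 to 2158) overlapped. No marker of the 5 lists was at 0 in any library. Their part in the share of siRNA reads was not tested.

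The change of the exposure effect from F0 to F2 was tested after these values were seen, and was chosen because of them. Relabelling within generations assumes no effect in either one, so the p-values below do not test whether the effects in F0 and F2 are equal. The F2 effect minus the F0 effect was -404 reads per 1000000 (exact permutation of labels within generations, two-sided, p = 0.02, adjusted p = 0.0375 over 3 such tests, which also covered the share without novel_sir15806 and the number listed). Without novel_sir15806 the difference was -215 (exact permutation p = 0.025, adjusted p = 0.0375). With 1 library left out at a time, p ran from 0.005 to 0.085. It was 0.085, 0.055 and 0.085 without F2 NHS 1, 2 and 3, and 0.05 without F0 NHS 2. Among the tRNA-low libraries of F0 and F2 the difference was -170. With 1 F2 Con library among them, only 18 relabellings exist, too few for the test to decide.

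The number of predicted siRNAs listed was higher in NHS on average in every generation, but the groups overlapped in F0 and F2. It was 1562, 806 and 1227 in F0 Con against 1617, 1664 and 1013 in F0 NHS (exact permutation p = 0.5, adjusted p = 0.571). In F1 it was 1296, 1070 and 1497 in Con against 1558 in NHS 2 (exact permutation p = 0.5, adjusted p = 0.571). In F2 it was 1070, 667 and 692 in Con against 870, 1266 and 1489 in NHS (exact permutation p = 0.2, adjusted p = 0.4). Within F0 and within F2 NHS the tRNA-high library of each group had the fewest. In F2 Con, however, the tRNA-high libraries had the most and the fewest. In F1 the tRNA-high NHS 2 listed more than every tRNA-low Con library.

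Pooled over generations the difference was 301 siRNAs (exact permutation within generations, p = 0.0525, adjusted p = 0.4). It was 21.4 when at least 3 reads were required and 145 at the expected depth of the smallest library. Among the tRNA-low libraries it was 466, averaged over F0 and F2 alone, and the F2 difference there was 685.5. With at least 3 reads, the F1 and F2 differences turned to -53.7 and -68.3. The change of the F2 against the F0 effect on the number listed was 166 (exact permutation p = 0.71).

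**Figure D2:**
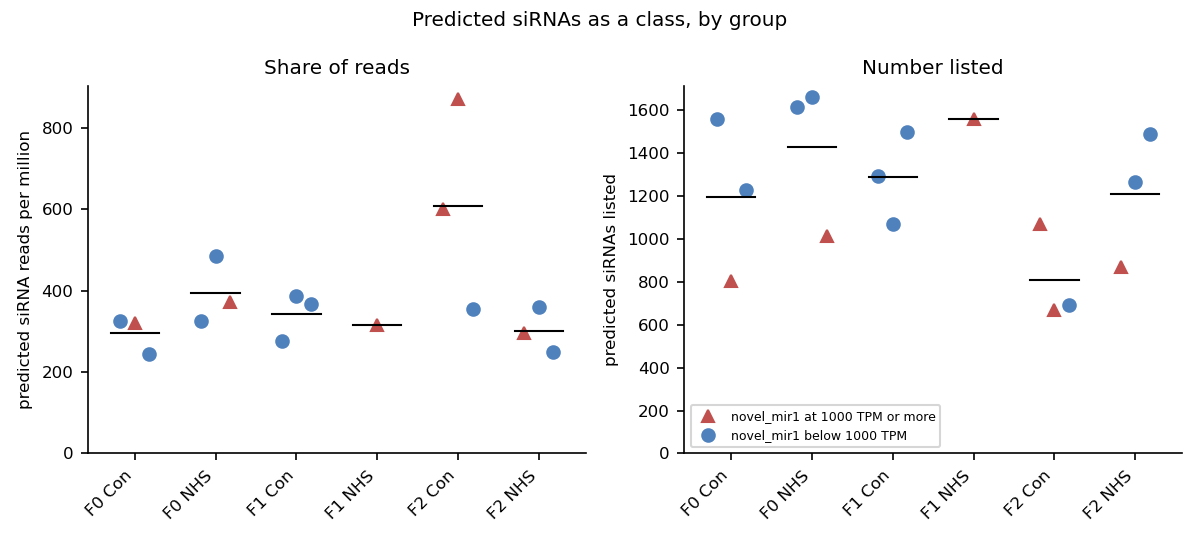
Predicted siRNAs as a class in 16 libraries by group: reads per 1000000 on the left, number listed on the right. Points are libraries, triangles those with novel_mir1 at 1000 TPM or more, and lines are group means. F2 Con 1 and 2 hold the highest shares, 602 and 871 reads per 1000000, while F2 Con 2 and 3 list the fewest siRNAs, 667 and 692.

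Single siRNAs were tested with edgeR's quasi-likelihood F test (two-sided, Benjamini-Hochberg adjustment over 2191 small RNAs of the 4 classes held whole by the 16 lists). In F0 the fit called 0 of the 67 siRNAs and 0 of all 2191 (0%) at an adjusted p under 0.05. At an unadjusted p under 0.05 it picked 5 of the 67 (7.46%), against 5.43% of all small RNAs tested. DESeq2 gave an adjusted p to 18 of the 67 and called 0, against 1.63% of all small RNAs to which it gave one. The median log2 fold change of the 67 was 0.76, against 0.25 over all 2191, and 45 of 67 were above 0, against 57.6% of all. Without F0 NHS 3 these medians were -0.34 and -0.02, and 32 of the 67 were above 0. With any other library left out the median of the 67 was 0.55 or more.

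The smallest p in F0 belonged to novel_sir15342. It stood at 5.49, 1.18 and 4.06 TPM in F0 Con and at 0.29, 0.14 and 0.24 TPM in F0 NHS, and every NHS library lay below every Con library. The log2 fold change was -4.04 (SE 0.94, adjusted p = 0.216 by edgeR), and -4.50 among the tRNA-low libraries. In F1 it stood at 0.16 to 0.47 TPM in Con and 0.28 in NHS 2, and in F2 at 0.50 to 1.09 TPM in Con and 0.27 to 0.56 in NHS, with the F2 groups overlapping.

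For novel_sir10851 the F0 Con levels were 0.98, 22.2 and 1.01 TPM and the F0 NHS levels 0.40, 0.68 and 0.57 TPM. The groups did not overlap, but the size rested on F0 Con 2: the log2 fold change of -4.19 (SE 1.45, adjusted p = 0.753) was -0.87 without that library. novel_sir9962 went the other way, at 2.43, 0.99 and 6.78 TPM in F0 Con and 30.1, 63.4 and 4.44 TPM in F0 NHS. NHS 1 and 2 stood above all Con libraries and NHS 3, the tRNA-high one, within their range (log2 fold change 3.21, SE 1.29, adjusted p = 0.867). In all, 2 of the 67 lay below Con in all 3 F0 NHS libraries, against 4.43% of all small RNAs tested, and 0 lay above, against 5.8%.

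In F1, with 1 NHS library, edgeR called 0 of the 67 siRNAs and 0 of all 2191 (0%). At an unadjusted p under 0.05 it picked 13 siRNAs (19.4%), against 9.77% of all, 11 of them higher and 2 lower in F1 NHS 2. Most of the siRNAs picked were ones whose levels did not overlap between tRNA-high and tRNA-low libraries. Such siRNAs differ in F1 by construction, since F1 NHS 2 was tRNA-high and all F1 Con libraries were tRNA-low. DESeq2 called 1 of the 29 siRNAs it gave an adjusted p, novel_sir2660, against 5.88% of all small RNAs it gave one. A fit on the F1 libraries alone called 4 of the 21 it tested, against 10.7% of all: novel_sir10012, novel_sir13595 and novel_sir16253, which were lower, and novel_sir2529, which was higher. The median log2 fold change was -0.08, against -0.59 over all 2191, with 33 of 67 above 0, against 40.2% of all. In the fit on the F1 libraries alone, the median was -2.34 for the siRNAs kept, against -0.47 over all small RNAs in that fit. That fit required 1 CPM in at least 3 of the F1 libraries. An siRNA could therefore pass through the Con libraries alone but not through the NHS library alone, which lowers the median by construction. novel_sir10012, novel_sir13595 and novel_sir16253 passed through F1 Con alone and were lower in every tRNA-high library, so that fit gives no separate result.

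The F1 siRNAs with the smallest p were novel_sir4300, novel_sir2621 and novel_sir2660. novel_sir2621 had 0 reads in all 3 F1 Con libraries and 11.2 TPM in F1 NHS 2, which is at least 92.9-fold higher than a floor of 3 reads in each Con library. novel_sir4300 stood at 0.04, 0.04 and 0.12 TPM in F1 Con and at 2.93 in F1 NHS 2 (log2 fold change 5.33, SE 1.83, adjusted p = 0.440 by edgeR). Both were also above 1 TPM in F2 Con 1, F2 Con 2 and F2 NHS 1, which are tRNA-high libraries. With a term for the tRNA-high and tRNA-low libraries the log2 fold change of novel_sir4300 was 2.44, and the adjusted p of both was 0.854 by edgeR. novel_sir2660, with the values given above, had a log2 fold change of -4.43 (SE 1.68, adjusted p = 0.440 by edgeR).

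In F2 the fit called 0 of the 67 siRNAs and 0 of all 2191 (0%). At an unadjusted p under 0.05 it picked 5 (7.46%), against 10.6% of all. DESeq2 called 2 of 59, novel_sir5584 and novel_sir15806, against 3.66% of all, which is near the share of the siRNAs (3.39%). The median log2 fold change was -0.45, against 0.22 over all 2191, and 25 of 67 were above 0, against 55.1% of all. Without F2 NHS 2 these medians were -0.03 and 0.13, and 31 of the 67 were above 0. Among the tRNA-low libraries they were 0.05 and 0.51. Scaling by library totals alone moved the median of all small RNAs to -0.00 in F2 and to 0.36 in F0, and that of the 67 to -0.63 and 0.95.

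novel_sir5584 had 0 reads in all 3 F2 Con libraries and stood at 0.54, 2.01 and 0.69 TPM in F2 NHS. It was thus at least 7.98-fold higher in F2 NHS than a floor of 3 reads in each Con library (adjusted p = 0.127 by edgeR, 0.00088 by DESeq2). Its level in the other groups was 0.39, 0.28 and 0.16 TPM in F0 Con, 1.26, 0.88 and 0.24 in F0 NHS, 1.13, 6.54 and 1.77 in F1 Con and 0.38 in F1 NHS 2. F2 Con was the only group of the 6 without a read of it.

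novel_sir15806 had a log2 fold change of -4.06 in F2 (SE 1.20, adjusted p = 0.320 by edgeR, 0.00598 by DESeq2). Among the tRNA-low libraries, 1 F2 Con and 2 F2 NHS, it was -1.03. novel_sir4982 had 0 reads in all 3 F2 Con libraries and in F2 NHS 1, and stood at 1.01 and 0.73 TPM in F2 NHS 2 and 3, at least 4.28-fold higher on average (adjusted p = 0.371 by edgeR). It had no read in any of the 6 tRNA-high libraries. In F2, 2 of the 67 lay above Con in all 3 NHS libraries, novel_sir5584 and novel_sir12580, against 5.75% of all small RNAs tested. The 4 that lay below Con in all 3 were novel_sir15806, novel_sir6376, novel_sir3016 and novel_sir12534, against 5.89%.

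**Figure D3:**
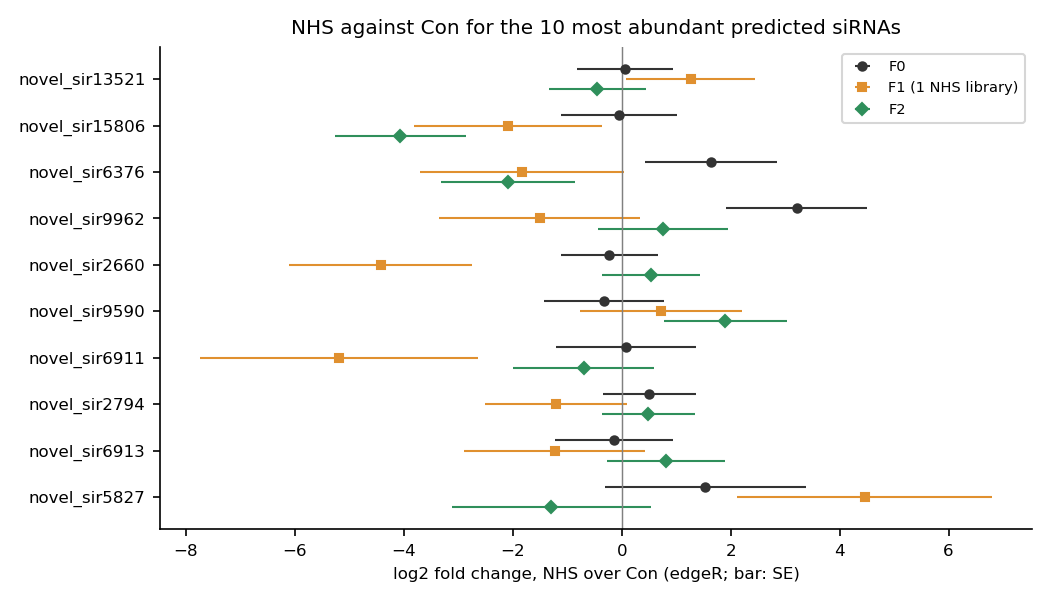
Log2 fold changes of NHS over Con for the 10 most abundant predicted siRNAs in F0, F1 and F2, from edgeR, with bars of 1 SE. In F1 the NHS group is 1 library. The point farthest from 0 in F2 is novel_sir15806 at -4.06, and in F0 novel_sir9962 at 3.21. None passed an adjusted p of 0.05.

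Averaged over the 3 generations, the exposure effect called 0 of the 67 siRNAs and 0 of all 2191 (0%) with edgeR. At an unadjusted p under 0.05 it picked 8 siRNAs (11.9%), against 8.9% of all. DESeq2 called 3 of 37 (8.11%), novel_sir12534, novel_sir1927 and novel_sir15342, against 4.21% of all. The median log2 fold change was -0.09 both for the 67 and for all 2191, with 31 of 67 above 0, against 47% of all. novel_sir12534 stood at 0.63, 0.99 and 0.69 TPM in F0 Con and 0.54, 0.58 and 0.95 in F0 NHS, at 1.84, 3.82 and 1.33 in F1 Con and 0.38 in F1 NHS 2, and at 1.21, 1.33 and 1.95 in F2 Con and 0.35, 0.52 and 0.23 in F2 NHS. NHS lay below Con without overlap in F1 and F2 but not in F0 (mean log2 fold change -1.60, SE 0.58, adjusted p = 0.465 by edgeR, 0.0164 by DESeq2).

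For novel_sir1927 the lone F1 NHS library had no read, so its fitted mean depends on the prior count of the fit and is not given. Its level was highest in F0 Con 2, at 5.57 TPM, and F2 Con 3, at 2.14 TPM. For novel_sir5584 the same holds because of the 3 empty F2 Con libraries (adjusted p = 0.465 by edgeR). The effect differed between generations for 0 of the 67 by edgeR and 0 of all 2191 (0%). At an unadjusted p under 0.05 there were 7 (10.4%), against 9.4% of all. DESeq2 called 1 of 29 (3.45%), novel_sir5584 (adjusted p = 0.00997, and 0.315 by edgeR), against 2.04% of all. The other siRNAs with the smallest p in that test were novel_sir10851 and novel_sir4982, both with an adjusted p of 0.503 by edgeR.

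The control groups of the 3 generations were compared to show how far siRNA levels moved without exposure. edgeR called 1 of the 67 (1.49%), novel_sir5584, against 0.456% of all 2191. An unadjusted p under 0.05 was reached by 19 of the 67 (28.4%), against 19.2% of all. Of these 19, 6 did not overlap between tRNA-high and tRNA-low libraries, against 24 of all 67. The part of the split in these differences was not tested. novel_sir5584 averaged 0.28 ± 0.12 TPM in F0 Con, 3.15 ± 2.96 in F1 Con and 0 in F2 Con (SD, n = 3 each), where 3 reads would be 0.115 to 0.166 TPM. All 3 F1 Con libraries lay above the F0 Con libraries. The call (adjusted p = 0.036 by edgeR) came from a joint test of F1 Con and F2 Con against F0 Con and singles out neither.

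This call held without F0 NHS 3, F1 NHS 2 or F2 NHS 1 and was lost without any other single library, with an adjusted p of 0.0317 to 0.103 by edgeR over the 16 fits. It was also lost with no filter on low counts (adjusted p = 0.909) and kept with a term for the tRNA-high and tRNA-low libraries (adjusted p = 0.0128). DESeq2 called 8 of 59 siRNAs (13.6%) between the control groups, against 11% of all small RNAs: novel_sir5584, novel_sir15806, novel_sir2890, novel_sir2660, novel_sir15342, novel_sir3016, novel_sir6437 and novel_sir4300.

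The level of novel_sir15806 averaged 3.53 ± 0.82 TPM in F0 Con, 33.4 ± 25.2 in F1 Con and 199 ± 169 in F2 Con (n = 3 each), each group above the one before except that F2 Con 3 lay within the range of F1 Con. novel_sir3016 averaged 0.93 ± 0.46, 1.36 ± 0.68 and 10.8 ± 2.86 TPM, with F2 Con above both other groups. novel_sir2660 averaged 18.8 ± 17.3, 24.2 ± 6.22 and 1.51 ± 0.75 TPM, with F2 Con below both. The summed germ cell markers also moved between the control groups, at 4140 to 8155 TPM in F0 Con, 12949 to 20825 in F1 Con and 19191 to 22175 in F2 Con, with F0 Con below both others and F1 Con 3 within the F2 Con range. The smooth muscle and stroma markers stood at 70257 to 170157 TPM in F0 Con, 8829 to 16901 in F1 Con and 12564 to 35351 in F2 Con. Epididymal markers ranged from 20287 to 28752, 4618 to 19877 and 6048 to 9153 TPM, those of red blood cells from 10152 to 77354, 15580 to 34278 and 4330 to 11541, and those of leukocytes from 250 to 1861, 408 to 493 and 195 to 2323, in the same order. Their part in these levels was not tested.

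The split by novel_mir1 ran through many of the siRNAs. Of the 67, 24 (35.8%) did not overlap between the 6 tRNA-high and the 10 tRNA-low libraries, against 17.7% of all 2191 small RNAs. The share was 0.816% for known miRNAs, 4.87% for predicted miRNAs and 30.7% for predicted piRNAs. The split was found in these libraries and gets no test. The selection also favours such siRNAs, since 21 of the 67 reached 1 TPM in tRNA-high libraries alone and 17 in tRNA-low libraries alone, and 21 of the 24 were among these.

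Higher in every tRNA-high library were 11 siRNAs (6.94% of all small RNAs did so): novel_sir5827, novel_sir13941, novel_sir2621, novel_sir4301, novel_sir6132, novel_sir2619, novel_sir4001, novel_sir8435, novel_sir8603, novel_sir1219 and novel_sir6083. novel_sir5827 stood at 2.74 to 18.6 TPM in the 6 tRNA-high libraries and at 0 to 1.01 in the other 10. novel_sir13941 stood at 4.77 to 32.4 TPM against 0 to 0.84. novel_sir2621 stood at 1.13 to 12.0 TPM against 0 to 0.21.

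In F2 NHS, for example, novel_sir2621 was at 12.0 TPM in the tRNA-high library and at 0.08 and 0 in the other two. novel_sir8435 and novel_sir6083 had no read in any of the 10 tRNA-low libraries and averaged 2.16 ± 1.59 and 1.11 ± 1.35 TPM in the 6 others (SD), at least 18.0-fold and 9.26-fold higher than a floor of 3 reads in each library. The tRNA-high libraries were not alike: novel_sir4301 was at 0.66 and 1.61 TPM in F0 Con 2 and F0 NHS 3 and at 9.12 to 10.7 TPM in the other 4.

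Lower in every tRNA-high library were 13 siRNAs (10.7% of all small RNAs did so): novel_sir6911, novel_sir6913, novel_sir16253, novel_sir13595, novel_sir7000, novel_sir13676, novel_sir7711, novel_sir10012, novel_sir1951, novel_sir1651, novel_sir6881, novel_sir15447 and novel_sir10987. novel_sir6911 stood at 0.24 to 3.51 TPM in tRNA-high libraries and at 5.12 to 33.0 in tRNA-low ones, and novel_sir6913 at 0.57 to 4.11 against 5.35 to 13.7. novel_sir16253 stood at 0 to 0.04 TPM against 0.85 to 11.4. novel_sir15447 had no read in the 6 tRNA-high libraries, was listed in all 10 others and averaged 0.88 ± 0.52 TPM there (SD), at least 6.64-fold higher than the floor.

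**Figure D4:**
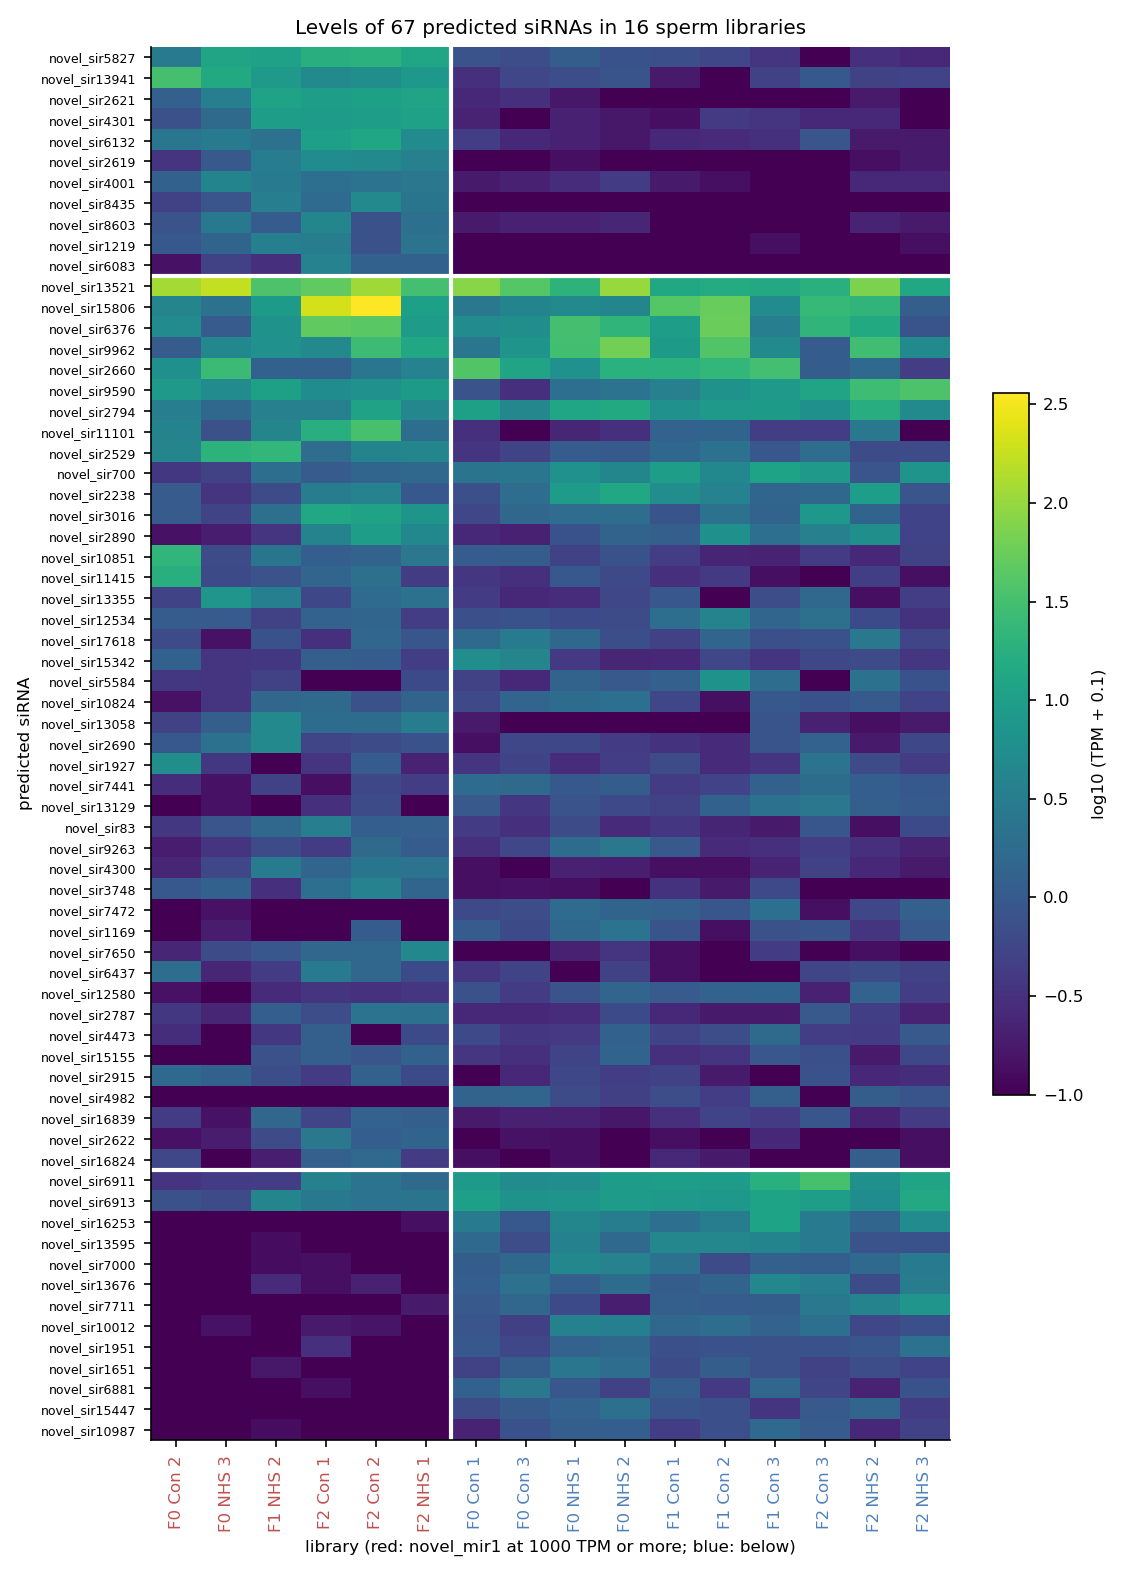
Levels of the 67 predicted siRNAs (rows) in 16 libraries (columns), coloured by log10 of TPM + 0.1. White lines separate the 6 libraries with novel_mir1 at 1000 TPM or more (left) from the other 10, and the 11 siRNAs higher in every library of the left set (top) and the 13 lower in every one (bottom) from the 43 that overlap.

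Some siRNAs with neighbouring numbers in their names moved together. Spearman's rho over the 16 libraries, which share groups and the novel_mir1 split, was 0.84 between novel_sir4300 and novel_sir4301, 0.80 between novel_sir2619 and novel_sir2621, 0.73 between novel_sir2621 and novel_sir2622 and 0.91 between novel_sir6911 and novel_sir6913. Over all 2211 pairs of the 67 the median rho was 0.056, but these pairs mix both sides of the novel_mir1 split. By contrast, novel_sir2619, novel_sir2621 and novel_sir4301 were all higher in every tRNA-high library, and novel_sir6911 and novel_sir6913 lower. novel_sir6881 and novel_sir6911, also both lower there but 30 numbers apart, had a rho of 0.71. The part of the split in these values was not tested. The numbers do not always go with likeness, since novel_sir2787 and novel_sir2794 had a rho of 0.016. What the numbers stand for is not given in the sources used here.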

How the data were processed

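The members, lists and tests were chosen with earlier results of these data known. The authors deposited, per the file headers, a list of small RNAs per library with a count and a TPM value. The deposited counts are integer read numbers, and the deposited TPM values equalled the count per 1000000 library reads in 100% of entries. The submitters' processing notes name build mm10; for the aligner, counting and siRNA prediction, tools were not given in the sources used here. Where a list stops early, its library total came from dividing counts by TPM. Among the 16 libraries this was done for F1 NHS 2, F2 NHS 2 and F2 NHS 3. Positions of predicted precursors, as the authors deposited them, gave the place of novel_mir1 (starts counted from 0, raised by 1).

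Known miRNAs, predicted miRNAs, siRNAs and piRNAs of 16 libraries (667140 listed) were fitted together in edgeR 4.0.16 under R 4.3.3 with TMM scaling of library totals and 6 group means. A small RNA had to reach 1 CPM in 3 or more libraries, which left 735, 267, 67 and 1122. Scripts were tested on simulated data. DESeq2 1.42.0 ran beside it and leaves adjusted p-values of low counts empty. Class shares and numbers listed used exact permutation tests in scipy 1.17.1, adjusted over 8 tests. Alternatives were library totals without TMM, no filter, a replicate block, each generation alone, each library left out, other denominators and detection limits.

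The siRNAs named were the 10 highest by mean, every one called in a contrast or else its 3 smallest p, the 3 steadiest and 3 most variable of those listed in all 16, and the nearest to the selection threshold. Others named in lists (siRNAs that do not overlap, called by another fit or with neighbouring numbers) were chosen after their values were seen.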

Additional observations from a re-analysis of the deposited data

Results flagged for a closer look

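The exposure effect on the share of predicted siRNA reads was compared between F2 and F0 after the values were seen. An exact permutation of labels within generations gave p = 0.02. The comparison was chosen from these values and the relabelling assumes no effect in either generation, so a difference between the effects is not established. With 1 library left out the exact permutation p ran from 0.005 to 0.085. F2 Con 1, F2 Con 2 and F2 NHS 1 were tRNA-high. The share was higher in NHS in F0, by 97.3 reads per 1000000, and lower in F2, by a difference of -307. Leaving out novel_sir15806, the siRNA that took 35.3% and 41.5% of the predicted siRNA reads in F2 Con 1 and 2, gave p = 0.025 in the same exact permutation. Without novel_sir13521 the difference was -368 (exact permutation p = 0.01). For the reads outside the 67 siRNAs it was -61.9 (exact permutation p = 0.13).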

How the results depend on the processing

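The number of siRNAs called depended on the tool: DESeq2 called 1 in F1, 2 in F2, 3 in the mean effect, 1 in the difference between generations and 8 between control groups, where edgeR called 0, 0, 0, 0 and 1. Over all small RNAs DESeq2 called 87, 79, 73, 31 and 238, where edgeR called 0, 0, 0, 0 and 10. A fit on F1 libraries alone called 4, and 110 over all. The control group count was 0 with no filter, 0 to 1 with single libraries left out, and 2 with a term for the tRNA-high libraries or among the 10 tRNA-low ones, 2 settings chosen after seeing the data. In F0 all alternatives called 0, as did library totals without TMM in all contrasts of the exposure. Among tRNA-low libraries the pooled share difference turned to 36.02, over F0 and F2 alone. Requiring 3 reads turned the difference in the number listed to -53.67 in F1 and -68.33 in F2.

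Replicate numbers did not pair the libraries: the deviations of 30 same-numbered pairs correlated with a median of -0.03 (10 above 0.1), and 5 of 15 libraries correlated best with their own number. With the replicate block the control group count was 0 (novel_sir5584, adjusted p = 0.0691) and no other count changed. Leaving out F0 Con 2 moved novel_sir10851 from -4.19 to -0.87 in F0. Many siRNAs rest on few reads, so absence below 3 reads per library, 0.102 to 0.166 TPM, was not detectable at this depth.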

Other observations

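Groups of siRNAs with like profiles could be seen outside the comparisons. novel_sir2238, an siRNA chosen after its values were seen, followed novel_sir9962 in F0: it stood at 0.63, 0.94 and 1.76 TPM in F0 Con and at 9.12, 13.25 and 0.24 TPM in F0 NHS, with NHS 1 and 2 above and NHS 3 below all Con libraries. novel_sir11415, chosen in the same way, shared with novel_sir10851 a single high library, F0 Con 2, at 17.8 TPM against at most 1.99 TPM elsewhere. novel_sir11101 was high in F2 Con 1 and 2, at 17.5 and 33.0 TPM, as was novel_sir15806, and at most 4 TPM elsewhere.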
